A study of Mus musculus with 14 samples.

Results

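H3K9me3 peaks of the scr control that had no counterpart after miR-93-5p overexpression were examined in LEPC cells, a mouse cell line from strain C57BL/6 at 3 passages. A member of this set is a peak of the deposited scr H3K9me3 list that shares no base with any peak of the miR-93-5p H3K9me3 list and none with any scr H3K4me3 peak, in mm9 coordinates. There were 4367 such peaks among 15888 scr H3K9me3 peaks, or 27.5% (exact 95% binomial interval 26.8% to 28.2%, counting error alone). The members were thus chosen by the peak calls of these 3 lists, and their number, score and width are a description. They are called peaks of scr alone here. The name describes the peak lists, and whether the mark itself was weaker at these places in miR-93-5p cells was not measured by the files used.

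The study overexpressed miR-93-5p, or a mutated form of it called mutant here, and set both against cells labelled scr. The series title ties the microRNA to tumour suppressive pathways, classical and epigenetic, in liver cancer. Histone marks H3K9me3, H3K27me3 and H3K4me3 were mapped by chromatin immunoprecipitation and sequencing (ChIP-seq) in miR-93-5p and scr cells, and RNA-seq covered miR-93-5p, mutant and scr cells. Each combination of assay and condition had 1 library. No difference below therefore has a replicate error or a test, and each one is a difference between libraries. The labels do not say how the microRNA was delivered or whether cells came from 1 clone, and the RNA-seq files hold no level of the mature microRNA.

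H3K9me3, trimethylation of lysine 9 on histone H3, is laid down by enzymes of the Suv39h and Setdb1 type and bound by heterochromatin protein 1. It marks repeats, satellite DNA, zinc finger gene clusters and genes that a lineage does not use. H3K27me3 is the Polycomb mark, found over silent developmental genes, and H3K4me3 marks the starts of transcribed genes. MicroRNAs act on mRNAs, pairing with them through their seed.

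The overexpressed microRNA is shown because the condition that lacks these peaks rests on it. The capitals mark its seed, bases 2 to 8, and the sequence is the RefSeq entry on GRCm38.p6.
mmu-miR-93-5p: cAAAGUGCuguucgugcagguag

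Gene starts were rarely under a peak of scr alone. The 4 promoters below are shown for 2 genes without an RNA-seq locus and 2 transcribed genes among these starts, with CG dinucleotides in capitals. Hoxd1 and Kl, whose starts lay wholly under such a peak, had no RNA-seq locus in any library. Here and below, no RNA-seq locus means that no assembled locus matched the gene by overlap, which does not show that the gene was silent. Jade1, with 86 of 300 bases under one, and Sprr1a, with 95, were transcribed in every library. All are RefSeq sequences on GRCm38.p6, from 250 bases before to 50 after the gene start, written 5′ to 3′ in the direction of the gene.
Hoxd1: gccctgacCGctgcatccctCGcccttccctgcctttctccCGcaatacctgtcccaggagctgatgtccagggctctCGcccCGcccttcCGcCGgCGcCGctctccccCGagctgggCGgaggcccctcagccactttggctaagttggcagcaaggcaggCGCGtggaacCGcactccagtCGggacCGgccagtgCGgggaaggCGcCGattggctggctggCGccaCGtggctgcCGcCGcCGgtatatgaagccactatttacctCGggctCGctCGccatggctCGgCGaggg
Kl: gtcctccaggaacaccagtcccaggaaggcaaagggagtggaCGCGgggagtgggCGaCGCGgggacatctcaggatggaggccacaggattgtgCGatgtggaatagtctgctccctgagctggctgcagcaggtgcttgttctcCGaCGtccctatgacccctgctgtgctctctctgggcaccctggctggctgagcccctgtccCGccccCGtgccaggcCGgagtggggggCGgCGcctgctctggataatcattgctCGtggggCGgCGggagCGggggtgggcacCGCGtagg
Jade1: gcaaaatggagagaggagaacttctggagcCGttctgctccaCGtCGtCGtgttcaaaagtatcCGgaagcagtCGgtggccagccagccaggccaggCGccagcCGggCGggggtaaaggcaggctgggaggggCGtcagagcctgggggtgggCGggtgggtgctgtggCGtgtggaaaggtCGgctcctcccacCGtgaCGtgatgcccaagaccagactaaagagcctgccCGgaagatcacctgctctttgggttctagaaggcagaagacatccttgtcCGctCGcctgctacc
Sprr1a: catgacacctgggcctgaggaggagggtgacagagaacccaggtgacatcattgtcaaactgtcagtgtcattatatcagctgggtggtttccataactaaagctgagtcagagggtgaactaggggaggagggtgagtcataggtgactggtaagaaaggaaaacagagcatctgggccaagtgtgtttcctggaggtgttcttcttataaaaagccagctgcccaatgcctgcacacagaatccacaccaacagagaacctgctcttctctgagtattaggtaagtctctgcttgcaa
Hoxd1 held 29 CG dinucleotides, Kl 19, Jade1 18 and Sprr1a none, so the transcribed pair did not share a low CG count.

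The peaks of scr alone were mostly narrow and low in the scr list. The score is the submitters' own value for each peak, starts at 50, and was used only to rank peaks within that list. Their median width was 884 bp (quartiles 711 to 1143, range 386 to 7567), against 1266 bp (950 to 1761) for the other 11521 scr H3K9me3 peaks. Their median score was 63.3 (quartiles 55.3 to 79.0, highest 673), against 91.5 for the others, which reached 3100. They took up 4.31 Mb, or 19.98% of the length of all scr H3K9me3 peaks. The miR-93-5p list was the longer one, with 25879 peaks over 39.2 Mb. The mirrored rule left 14587 of those without a scr counterpart (56.4%).

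Peaks of scr alone were concentrated at low scores. In the decile of scr peaks with the highest scores, 16 of 1588 were peaks of scr alone (1.01%). The share increased in each lower decile and came to 834 of 1589 in the lowest (52.5%). Of 553 scr peaks with a score of at least 300, 3 were peaks of scr alone, and of 5505 with at least 100, 469 were. Among the 228 scr peaks of at least 4000 bp, 5 belonged to the set.

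**Figure D1:**
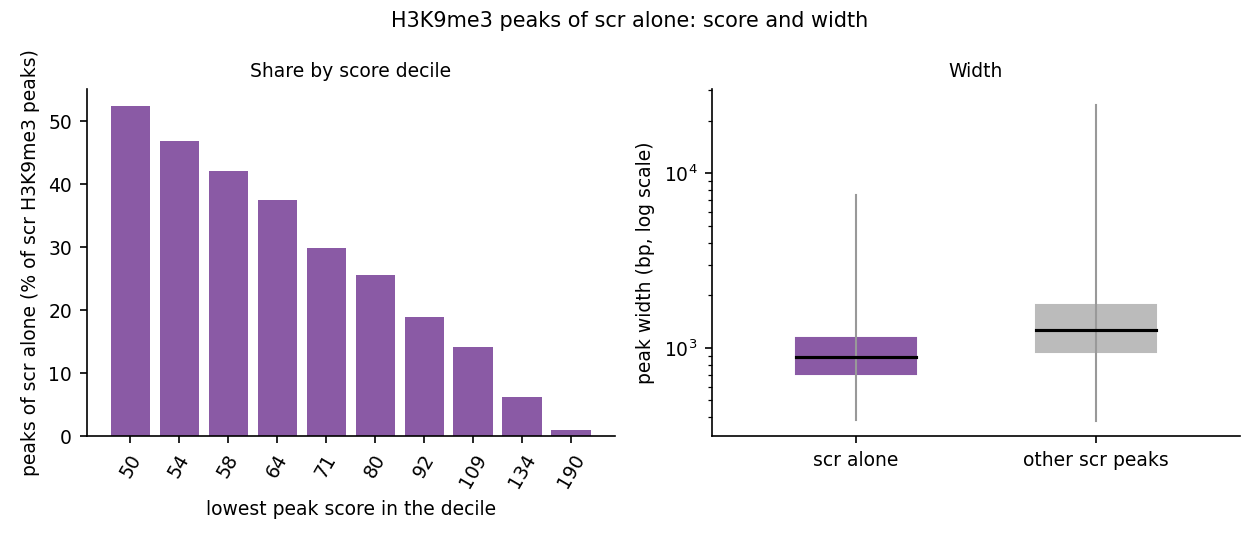
Left, share of scr H3K9me3 peaks that were peaks of scr alone, by decile of the scr score, each bar labelled with the lowest score in it; right, peak width on a log axis, with box for quartiles, black line for median and grey line for range. The share was 52.5% in the lowest decile and 1.01% in the highest, and the median widths were 884 bp in peaks of scr alone and 1266 bp in the other scr peaks.

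Many of these peaks had a miR-93-5p H3K9me3 peak nearby. The median gap to the nearest one was 17578 bp (quartiles 4302 to 54842). The gap was at most 1000 bp for 500 of the peaks and at most 5000 bp for 1176 (26.9%). It was over 100 kb for 633 (14.5%). Just inside the limit, 87 peaks lay within 100 bp of a miR-93-5p peak, the closest at 3 bp, with a median width of 882 bp and a median score of 63.9. Just outside it, 64 scr peaks overlapped a miR-93-5p peak by 1 to 100 bp, with a median width of 802 bp and a median score of 58.7. The closest pairs on both sides of the limit were thus alike in size and score.

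The highest-scoring peaks of scr alone formed 1 block on chromosome 6. They were chr6:37644668-37650023 (5356 bp, score 673, rank 81 of the scr list), chr6:37650107-37653583 (3477 bp, score 335) and chr6:37655269-37657397 (2129 bp, score 351). The first pair was 83 bp apart, and the nearest miR-93-5p peak lay 3477 bp from the block. No gene locus overlapped it. The nearest protein-coding gene was Akr1d1, a steroid reductase of bile acid synthesis in liver, at 126 kb to 136 kb, and no library had an RNA-seq locus for it. Another intergenic peak, chr6:140317983-140320478 (score 290), lay 52.1 kb from Plekha5.

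The next ranks fell inside genes. A peak of score 271, chr10:19737394-19739208, lay in Map3k5, which encodes a stress-activated kinase, and Map3k5 had 3.39 FPKM in miR-93-5p, 4.89 in mutant and 6.18 in scr (FPKM, fragments per length of transcript model and library size). Kcmf1, a ubiquitin ligase gene (log2 ratio of miR-93-5p over scr -1.13, and -0.11 in the measure of implied fragments explained at Ly6a), carried a peak of score 233 and had 25.4 FPKM in miR-93-5p, 25.1 in mutant and 57.0 in scr. In bulk RNA, fewer cells that express a gene and less RNA per cell cannot be told apart. Negr1 (score 235), which encodes a neuronal adhesion molecule, had no RNA-seq locus. Phkb, Dync1li2 and Manbal carried peaks of scores 233, 229 and 215 and were transcribed at 6.75, 30.4 and 27.5 FPKM in scr. Dync1li2, which encodes a dynein subunit, had 31.8 FPKM in miR-93-5p, 35.7 in mutant and 30.4 in scr. High-scoring peaks of scr alone thus lay in genes with and without a matched RNA-seq locus.

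The widest ones included a pair in Mroh2a, chr1:90143095-90150661 (7567 bp, score 161) and chr1:90133098-90138719 (5622 bp, score 57.9). Mroh2a had no RNA-seq locus. A peak of 5450 bp, chr11:3075024-3080473, lay 21.9 kb from Eif4enif1, outside genes. Tug1, a long noncoding RNA, carried chr11:3540519-3544327 (3809 bp, score 211). On chromosome 17, Airn, the imprinted noncoding RNA of the Igf2r region, carried chr17:13019180-13022893 (3714 bp). Map3k4 carried chr17:12483700-12487222 (3523 bp) and was transcribed at 25.8 FPKM in miR-93-5p, 20.4 in mutant and 20.2 in scr. Scd4, a fatty acid desaturase gene without an RNA-seq locus, carried chr19:44419387-44422734 (3348 bp). Outside genes, chr17:10153268-10157280 (4013 bp, score 52.8) lay 242 kb from Qk.

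Peaks of scr alone were spread over all chromosomes analysed. Chromosome 5 held 412, chromosome 1 held 329 and chromosome X held 48. Per Mb they ranged from 0.293 on X to 2.92 on 17, where the scr list as a whole was also densest. Their share of scr peaks lay between 21.1% on chromosome 19 and 39.0% on X. Of 2077 windows of 1 Mb that held a scr H3K9me3 peak, 1676 held a peak of scr alone and 18 held at least 10. The fullest window, at 17 to 18 Mb of chromosome 17, had 14 among 54 scr peaks and 65 miR-93-5p peaks. At 22 to 23 Mb of the same chromosome, over zinc finger genes such as Zfp995 and Zfp943, it was 13 among 67 scr peaks and 67 miR-93-5p peaks.

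Counted along the scr list, 1948 peaks of scr alone stood singly between other scr peaks, and the rest formed runs, 581 of them pairs. The longest run was 10 in a row over chr3:73253390-73976553 (723 kb), around Bche, the butyrylcholinesterase gene. That span held 2 miR-93-5p H3K9me3 peaks and no peak of either other mark in either condition. The second was 9 in a row over chr3:155555193-158069520, across Negr1 and Lrrc7, where 5 miR-93-5p peaks also fell. In the run of 7 at chr10:123746121-124826874, by the monocarboxylate transporter gene Slc16a7, the span of 1081 kb held no miR-93-5p H3K9me3 peak at all. Scores were low around Bche, from 50.02 to 95.05, and by Slc16a7, from 50.07 to 71.27. In the run across Negr1 and Lrrc7 they ran from 50.34 to 234.85.

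Peaks of scr alone overlapped genes about as often as other scr H3K9me3 peaks did, and less often than the share of the genome in genes. A gene locus of any kind overlapped 1580 peaks of scr alone, or 36.2% (34.8% to 37.6%), against 36.9% (36.0% to 37.7%) of the other scr peaks. Protein-coding loci overlapped 32.0% of peaks of scr alone and 31.9% of the others. Gene loci occupied 38.5% of the span of the listed chromosomes and protein-coding loci 35.2%, both above the intervals for peaks of scr alone (30.6% to 33.4% for protein-coding loci). The remaining 2787 peaks (63.8%) overlapped no gene. Outside protein-coding loci the median distance to one was 51490 bp for peaks of scr alone and 38059 bp for the others, and 6.90% of peaks of scr alone lay over 500 kb away, against 3.25% of the others.

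Other marks, which the rule did not use, were present at few of them. A miR-93-5p H3K27me3 peak overlapped 103 (2.36%, 1.93% to 2.85%), against 2.73% of the other scr peaks. A scr H3K27me3 peak overlapped 224 (5.13%, 4.49% to 5.83%), against 4.75% of the others. Both conditions had H3K27me3 at 46, miR-93-5p alone at 57 and scr alone at 178. The intervals of peaks of scr alone and of other scr peaks overlapped for both libraries. The highest-scoring one under scr H3K27me3 was chr17:23984851-23987867 (score 198) in Prss32, a serine protease gene. It shared 280 bp with miR-93-5p H3K27me3 and 2780 bp with scr H3K27me3.

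A miR-93-5p H3K4me3 peak overlapped 11 peaks of scr alone (0.252%, 0.126% to 0.450%). Among scr H3K9me3 peaks that overlapped a miR-93-5p one and had no scr H3K4me3, it was 37 of 11304 (0.327%). At 6 of the 11, the miR-93-5p H3K4me3 peak overlapped a scr one and extended past it, and at 5 it overlapped none. The closest to a changed gene was chr5:91217667-91218575, 554 bp from Cxcl3, which encodes a neutrophil chemokine. The miR-93-5p H3K4me3 peak beside it was 3577 bp wide and covered 357 bp of it, while the scr H3K4me3 peak ended 345 bp away. Cxcl3 had 44.9 FPKM (42.5 to 47.2) in miR-93-5p, 18.3 (17.0 to 19.7) in mutant and 4.55 (3.71 to 5.39) in scr, where the bounds are those the files give. Its log2 ratio of miR-93-5p over scr, on FPKM plus a pseudocount of 1, was 3.05. Of the 9 nearest genes with a ratio, Cxcl3 and Atp6ap2 (1.14, at 450170 bp from its peak, and 0.28 in implied fragments) were at least 2-fold higher and none was lower. Over all 8425 genes compared, 2.97% were higher and 3.86% lower. Trim56, an antiviral ubiquitin ligase gene 70 bp from its peak, had 7.74 FPKM in miR-93-5p, 15.4 in mutant and 4.99 in scr. Sik1, Arid5b and Cda differed by less than 2-fold.

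At Ly6a, which encodes the surface antigen Sca-1, a strong scr H3K9me3 peak had no miR-93-5p counterpart and was left out for H3K4me3. The scr H3K9me3 peak at chr15:74824027-74825896 (1870 bp, score 302, rank 547) shared 896 bp with the scr H3K4me3 peak chr15:74825001-74828316. Its whole 1870 bp lay under the miR-93-5p H3K4me3 peak chr15:74823929-74828288, which was 4360 bp wide, against 3316 bp for the scr one. The listed Ly6a locus is chr15:74825308-74828064. Ly6a had 755 FPKM (721 to 789) in miR-93-5p, 569 (544 to 595) in mutant and 137 (130 to 144) in scr, a log2 ratio of 2.45 for miR-93-5p over scr and 2.05 for mutant over scr. The number of fragments implied by the deposited bounds gave 0.31 and -0.02 for the same ratios. The length of the assembled transcript model cancels out of this number, but it is not a read count. Reads that fit several isoforms widen the bounds and make it too low. Msn, for example, had 153 FPKM in both miR-93-5p and scr but a log2 ratio of -2.98 in implied fragments. Which measure holds at Ly6a was not tested. Near-identical Ly6 paralogs can share reads, so levels in this family are uncertain. In all, 34 scr H3K9me3 peaks without a miR-93-5p counterpart were left out for scr H3K4me3, with a median width of 1074 bp and a median score of 67.3. The one at Ly6a had the highest score, and 26 of the 34 also overlapped miR-93-5p H3K4me3.

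No listed gene of the Ly6 family (0 of 23) was overlapped by a peak of scr alone. The cluster between Ly6e and Ly6f (317 kb) held 3 of them, at chr15:74935516-74936079, chr15:74990827-74991526 and chr15:75056506-75057375, with scores of 57.9, 57.1 and 71.4 and none in a gene. It held 15 H3K9me3 peaks in miR-93-5p and 9 in scr, 16 H3K27me3 peaks in miR-93-5p and 4 in scr, and 6 H3K4me3 peaks in miR-93-5p and 5 in scr. Ly6c1 had 645 FPKM in miR-93-5p, 411 in mutant and no matched locus in scr. Its scr level is thus unknown rather than 0, and a scr H3K4me3 peak (score 483) lay on the gene. Ly6e had 559 FPKM in miR-93-5p, 306 in mutant and 333 in scr. Ly6f had 0.835 FPKM in miR-93-5p, 1.33 in mutant and 2.94 in scr. Psca, another member of the family, had a log2 ratio of -2.28 for miR-93-5p over scr.

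**Figure D2:**
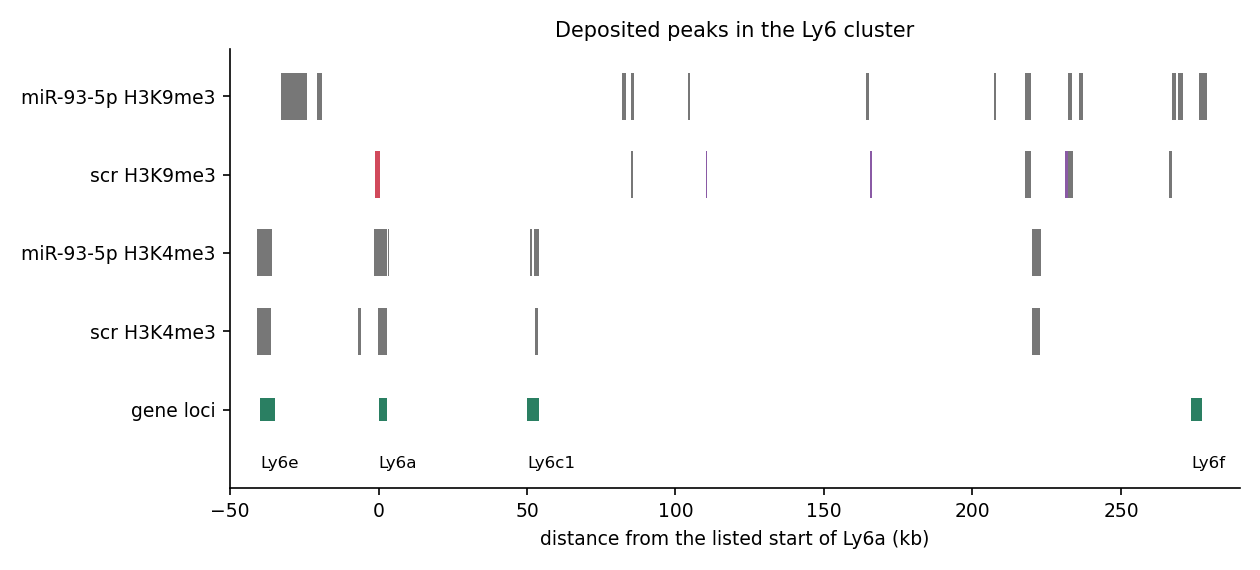
Deposited H3K9me3 and H3K4me3 peaks of miR-93-5p and scr along the Ly6 cluster, to scale in kb from the listed start of Ly6a, with 4 gene loci; purple marks the 3 peaks of scr alone and red the scr H3K9me3 peak at Ly6a that the rule left out. The red peak stands where miR-93-5p has no H3K9me3 peak and where both conditions have an H3K4me3 peak, and the purple peaks lie away from the 4 genes drawn. Other genes of the cluster, such as Ly6c2 and Ly6g, are not drawn.

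Peaks of scr alone overlapped 1099 of 18493 protein-coding gene loci (5.94%). Covered genes were long, with a median locus of 98.4 kb, against 56.3 kb for genes with other scr H3K9me3 peaks and none of these, and 18.4 kb for all protein-coding genes. A longer locus has more room for a peak, and 34.3% of genes over 200 kb were covered, against 1.35% of those under 20 kb. Of the covered genes, 894 had 1 such peak, 145 had 2 and 60 had more. No miR-93-5p H3K9me3 peak lay over 418 of them (38.03%).

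Ank3, which encodes the membrane scaffold ankyrin-G, had the most, 9 over 493 kb, beside 6 miR-93-5p H3K9me3 peaks and 1 other scr peak. Its RNA was low in each library, at 1.34 FPKM in miR-93-5p, 1.37 in mutant and 1.504 in scr. Wwox, an oxidoreductase gene at a common fragile site, had 7, beside 17 miR-93-5p peaks and 5 other scr peaks. Macrod2, Grip1, Dlgap2, Ltbp1 and Arhgap26 had 5 each. Each of these also held miR-93-5p H3K9me3 peaks, from 7 over Dlgap2 to 14 over Macrod2. Ltbp1, which encodes a binding protein of latent TGF-beta, was the one of these 5 with an RNA-seq locus in every library, at 23.1 FPKM in miR-93-5p, 24.9 in mutant and 25.8 in scr, a log2 ratio of -0.16 for miR-93-5p over scr but of -3.23 in implied fragments.

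**Figure D3:**
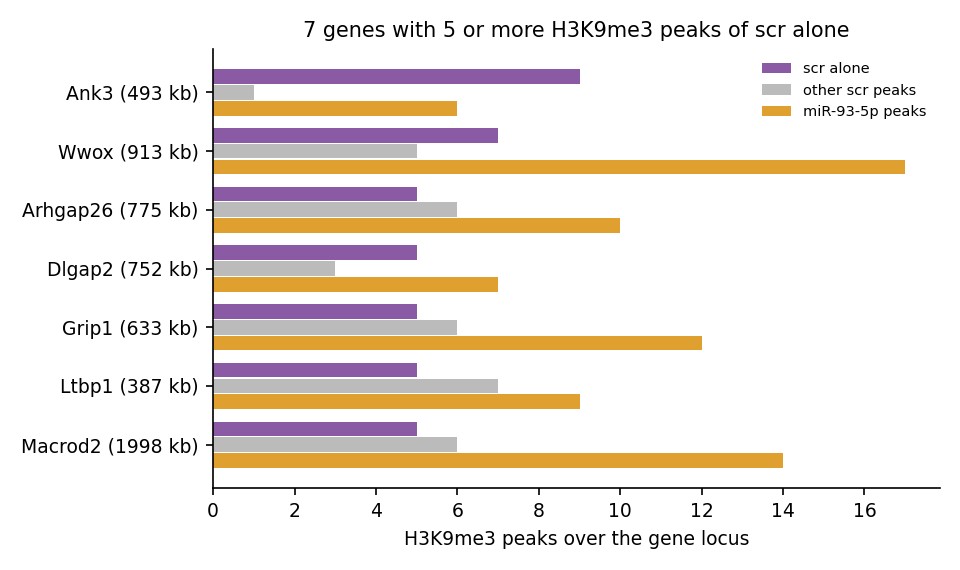
Number of H3K9me3 peaks over each of 7 gene loci with at least 5 peaks of scr alone, with locus length in kb: peaks of scr alone, other scr peaks, and miR-93-5p peaks. Ank3 has 9, 1 and 6 of them, and Wwox has 7, 5 and 17.

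In 33 genes at least 2 peaks of scr alone were the sole H3K9me3 peaks in either condition. Nfe2l2, which encodes the oxidative stress regulator Nrf2, had 2 in its middle, chr2:75527043-75528875 and chr2:75530385-75532031, and 53.8 FPKM in miR-93-5p, 45.0 in mutant and 46.5 in scr. Cltc, the clathrin heavy chain gene, had 2, the stronger at chr11:86554452-86556724 (score 180), and 160 FPKM in miR-93-5p, 140 in mutant and 124 in scr, a log2 ratio of 0.37 for miR-93-5p over scr but of -3.36 in implied fragments. Scara5, described below, was also in this group, as were Prss32, Scarb1, Sesn1 and Ocln.

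Another 5 short genes were covered over at least 50% of their locus, all without an RNA-seq locus in any library and without a miR-93-5p H3K9me3 peak. Znrf4 was covered over 98.5%, Nkapl over 84.6%, Gpr135 over 65.4%, Atoh1 over 62.9% and Foxd4 over 61.3%. Atoh1, a neural and secretory lineage factor, carried chr6:64679416-64680728 (score 123), 463 kb from the nearest miR-93-5p H3K9me3 peak. Foxd4, a forkhead factor gene, carried chr19:24973695-24975132 (score 109).

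Over all lengths, genes covered by peaks of scr alone were transcribed about as often as genes in general, while among genes under 50 kb their share was lower. In scr, 519 of 1099 had at least 1 FPKM (47.2%, 44.2% to 50.2%), against 46.1% of genes with other scr H3K9me3 peaks and 48.9% of all protein-coding genes. Genes without a matched RNA-seq locus count as below 1 FPKM here. Between 20 and 50 kb the share was 47.1% for covered genes and 61.2% for all, between 50 and 100 kb 57.9% for covered genes and 61.6% for all, and between 100 and 200 kb 58.3% for covered genes and 57.3% for all. Within genes over 200 kb the share was 37.5% for covered genes and 36.5% for all. Within genes under 20 kb it was 29.8% for covered genes and 40.4% for all. Among matched genes the median level in scr was 10.4 FPKM for covered genes and 14.3 FPKM for all. For genes with other scr H3K9me3 peaks and no peak of scr alone it was 10.1 FPKM. The lower median was thus not particular to covered genes. It also depended on locus length. Between 50 and 100 kb and between 100 and 200 kb, the median of covered genes was above that of all genes. In the other length classes it was below.

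Of the 15 most abundant covered genes, 14 had a locus in all 3 libraries and 1 of the 14 differed by at least 2-fold in FPKM. Cd9, a tetraspanin gene, carried chr6:125435636-125437784 (score 93.1) and had 402 FPKM in miR-93-5p, 432 in mutant and 401 in scr. Hspd1, the mitochondrial chaperonin gene, carried chr1:55139118-55140100 and had 273 FPKM in miR-93-5p, 337 in mutant and 336 in scr. Dbi, an acyl-CoA binding protein gene, had 341 FPKM in miR-93-5p, 292 in mutant and 282 in scr. Msn, which encodes moesin, had 153 FPKM in miR-93-5p, 143 in mutant and 153 in scr. None of these 4 had a miR-93-5p H3K9me3 peak, and none differed by 2-fold in FPKM, while in implied fragments the log2 ratios were 2.54 for Cd9, -0.35 for Hspd1, -1.15 for Dbi and -2.98 for Msn. Eif4ebp1, Polr1d, Gsr, Cyb5b, Cpt1a, Sult1c2, Emp1, Basp1, Ets2 and Kif11 followed, between 69.1 and 118 FPKM in scr. Eif4ebp1 was matched in scr alone and so was not compared. Ets2, a transcription factor gene, was at least 2-fold lower, at 32.4 FPKM in miR-93-5p, 36.4 in mutant and 73.7 in scr.

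How far the share of covered genes that differed between miR-93-5p and scr stood from that of all genes depended on the measure. Of 490 covered genes with values in all 3 libraries, 20 were at least 2-fold higher in miR-93-5p than in scr (4.08%), where the background over all 8425 genes compared was 2.97%. Another 18 were at least 2-fold lower (3.67%), where the background was 3.86%. The median log2 ratio was 0.10 over covered genes and 0.03 over all genes. In mutant over scr, which shares the scr library, 12 were higher (2.45%, background 2.64%) and 16 lower (3.27%, background 3.63%). Both shares for miR-93-5p had intervals that held the background, 2.51% to 6.23% and 2.19% to 5.74%. With a pseudocount of 0.1, which gives low genes more weight, 32 were higher (6.53%, 4.51% to 9.09%, background 3.85%) and 24 lower (4.90%, 3.16% to 7.20%, background 4.97%). In implied fragments, 56 of 466 covered genes were at least 2-fold higher in miR-93-5p than in scr (12.02%, background 7.5%) and 40 lower (8.58%, background 7.63%), with intervals of 9.21% to 15.3% for the higher genes and 6.20% to 11.5% for the lower ones. The intervals for higher genes thus lay above the background with the small pseudocount and in implied fragments. Genes with other scr H3K9me3 peaks and no peak of scr alone were also above it, at 51 of 751 (6.79%) with the small pseudocount and 71 of 712 (9.97%) in implied fragments. In mutant over scr, 53 of 466 covered genes were higher in implied fragments (11.4%, 8.64% to 14.6%) and 28 lower (6.01%). Genes with other scr H3K9me3 peaks and no peak of scr alone had 75 of 712 higher (10.5%) and 44 lower (6.18%) there. A background over all genes is not given here for mutant over scr in that measure. The share of higher covered genes in implied fragments was thus close in miR-93-5p and mutant, which share the scr library. Of the 20 higher genes 14 were also past 2-fold in implied fragments, and of the 18 lower ones 8 were. Where no miR-93-5p H3K9me3 peak lay over the gene, 8 of 183 were higher and 7 lower, and where one did, 12 of 307 were higher and 11 lower.

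Scara5, a scavenger receptor gene for ferritin, had the largest higher value, 29.9 FPKM (28.8 to 30.9) in miR-93-5p, 3.98 (3.65 to 4.32) in mutant and 1.16 (0.920 to 1.41) in scr. Its log2 ratio was 3.83 for miR-93-5p over scr and 1.20 for mutant over scr, and 4.90 and 2.11 in implied fragments. Its peaks chr14:66307414-66308028 (score 61.2) and chr14:66308312-66309094 (score 56.0) lay 22.2 kb and 23.1 kb into the listed locus, and no other H3K9me3 peak of either condition fell on the gene. Cdh13, which encodes T-cadherin, had 18.4 FPKM in miR-93-5p, 16.2 in mutant and 3.47 in scr, with 4 peaks of scr alone and 7 miR-93-5p peaks over 1041 kb. Scarb2, a lysosomal membrane protein gene, had 35.3 FPKM in miR-93-5p, 34.3 in mutant and 12.8 in scr, with 1 peak of scr alone and no miR-93-5p peak. Lhfp, Atg10, Zdhhc18, Aplp2, Xdh, Epdr1 and Spred2 followed, with log2 ratios from 1.22 to 1.56. Zdhhc18, Aplp2 and Xdh did not reach 2-fold in implied fragments.

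Cdh1, which encodes the epithelial adhesion protein E-cadherin, had the largest lower value, 1.52 FPKM (1.29 to 1.74) in miR-93-5p, 3.87 (3.52 to 4.22) in mutant and 30.7 (29.1 to 32.3) in scr. Its log2 ratio was -3.65 for miR-93-5p over scr and -2.70 for mutant over scr, and -2.98 and -1.90 in implied fragments. Cdh1 was thus low in both overexpression libraries while its H3K9me3 peak chr8:109180349-109182003 (score 123), 53.1 kb into the locus, stood in the scr list and not in that of miR-93-5p. Another 2 scr H3K9me3 peaks and 2 miR-93-5p ones lay over the gene. Bicc1, an RNA-binding protein gene, had 6.37 FPKM in miR-93-5p, 7.05 in mutant and 37.9 in scr. Fkbp5, a glucocorticoid-responsive chaperone gene, had 6.38 FPKM in miR-93-5p, 8.77 in mutant and 30.4 in scr, and no miR-93-5p H3K9me3 peak. Ddah1, which degrades asymmetric dimethylarginine, had 6.69 FPKM in miR-93-5p, 14.6 in mutant and 34.4 in scr. Sdhaf3, Slco2a1, Rbpms, Pla2g7, Celsr1 and Mpp6 followed, with log2 ratios from -1.77 to -1.32. Sdhaf3, Slco2a1 and Mpp6 did not reach 2-fold in implied fragments. Of the 2 largest values, that of Scara5 and that of Cdh1 had opposite signs, each with a peak of scr alone inside the gene.

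**Figure D4:**
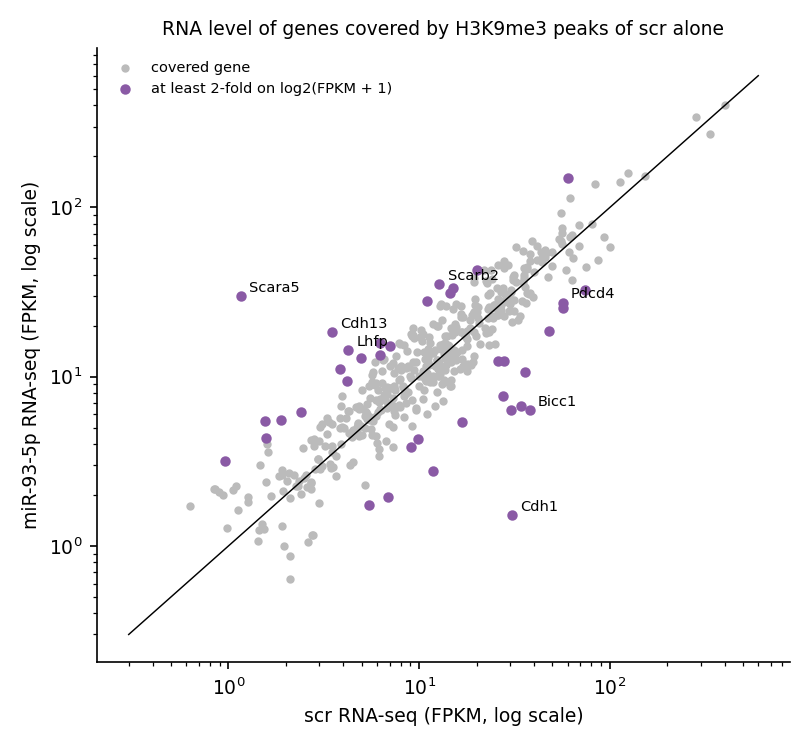
RNA level in miR-93-5p against scr, in FPKM on log axes, for the 490 genes covered by peaks of scr alone and compared; the line marks equal levels and purple points differ by at least 2-fold on log2(FPKM + 1). Most genes sit along the line, 20 lie at least 2-fold above it, with Scara5 farthest, and 18 at least 2-fold below it, with Cdh1 farthest.

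Marker genes describe the cell line, whose name the labels do not spell out. In scr, 6 of 8 progenitor and biliary markers, 5 of 7 hepatocyte markers and 1 of 5 mesenchymal markers (Vim, 1061 FPKM) had a locus. Of these, Epcam (0.840 FPKM) and Ttr (0.969 FPKM) were below 1 FPKM. Krt19, Prom1, Afp and Apoa1 had no matched locus in scr, though Krt19 had 418 FPKM in miR-93-5p. Krt8 had 658 FPKM, Krt18 306, Spp1 531, Hnf4a 40.6 and Alb 1.30, and none of 3 endothelial markers had a locus. Of 4 leukocyte markers 2 had a locus, at 1.56 and 7.63 FPKM. Of 22 genes of the liver and epithelial identity list, Cdh1 was the covered one. Over the 13 of that list with a ratio, 5 were at least 2-fold lower and 1 higher, and whether this bears on Cdh1 was not tested. The shares over all 8425 genes compared were 3.86% lower and 2.97% higher.

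Among gene families, 32 of 352 zinc finger genes were covered (9.09%), against 5.94% of all protein-coding genes. Other scr H3K9me3 peaks lay over 104 zinc finger genes and miR-93-5p peaks over 155. Zfp932, Zfp53, Zfp871 and Zfp386 were the covered ones with the highest scr RNA, and the log2 ratios of Zfp932, Zfp871 and Zfp386 were 0.04, -0.07 and -0.29. Solute carriers had 26 of 357 covered (7.28%), with Slc25a17, Slc20a2, Slc22a23 and Slc39a11 the most abundant, and cytochromes P450 4 of 95. Histocompatibility genes had 2 of 34, with H2-T24 carrying a pair of peaks, listed protocadherins 2 of 13 (Pcdh19 and Pcdhgc4), and serpins 1 of 58 (Serpina9). No olfactory receptor (0 of 842), vomeronasal receptor (0 of 184) or keratin (0 of 53) was covered. For comparison, miR-93-5p H3K9me3 peaks lay over 3 olfactory receptors, no vomeronasal receptor and 2 keratins.

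Of regulators, Mecom and Prdm16 were covered among 9 H3K9 methylases, Atf7ip among 13 readers and co-repressors of the mark, and none of 9 demethylases. Over all protein-coding genes 5.94% were covered. Mecom (597 kb) and Prdm16 (321 kb) are long, and of protein-coding genes over 200 kb 34.3% were covered. Atf7ip, a cofactor of Setdb1, carried 3 peaks of scr alone with scores of 57.5 to 79.4 and had 8.93 FPKM in miR-93-5p, 8.90 in mutant and 5.88 in scr. Of the 27 genes of these 3 lists with a ratio, none was at least 2-fold higher or lower in miR-93-5p than in scr. Their log2 ratios ran from -0.56 to 0.84. With backgrounds of 2.97% higher and 3.86% lower, few such genes would be past 2-fold in a list of this length. Of 31 tumour suppressors 3 were covered, Pdcd4 and Dlc1 among them. Pdcd4, a translation inhibitor gene, carried chr19:53998452-54000004 (score 110) and had 27.4 FPKM in miR-93-5p, 21.7 in mutant and 56.5 in scr, a log2 ratio of -1.02 and of -0.64 in implied fragments. Imprinted genes had 1 of 29 covered (Inpp5f), interferon response genes 1 of 22 (Iigp1) and cilium genes 1 of 19 (Dnah2). Outside protein-coding genes, 59 of 1730 long noncoding RNA loci were covered.

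Gene starts under these peaks were few, and few of their genes reached 1 FPKM in scr. A window from 250 bases before to 50 after the start was drawn for 14811 genes, with strand from RefSeq. Peaks of scr alone touched 55 of these windows, from 53 peaks, or 1.21% of the set, against 2.68% of the other scr peaks, which unlike these could hold scr H3K4me3. In scr, 2 of the 55 genes had at least 1 FPKM (3.64%, 0.443% to 12.5%). For starts at other scr H3K9me3 peaks without scr H3K4me3 it was 18 of 257 (7.00%, 4.20% to 10.8%), and for all starts without scr H3K4me3 7.55%. Over all starts it was 49.7%. The rule removes starts with scr H3K4me3, which marks transcribed genes, so the low level is in part set by the rule, and it did not stand below that of other starts without H3K4me3 by more than its interval.

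**Figure D5:**
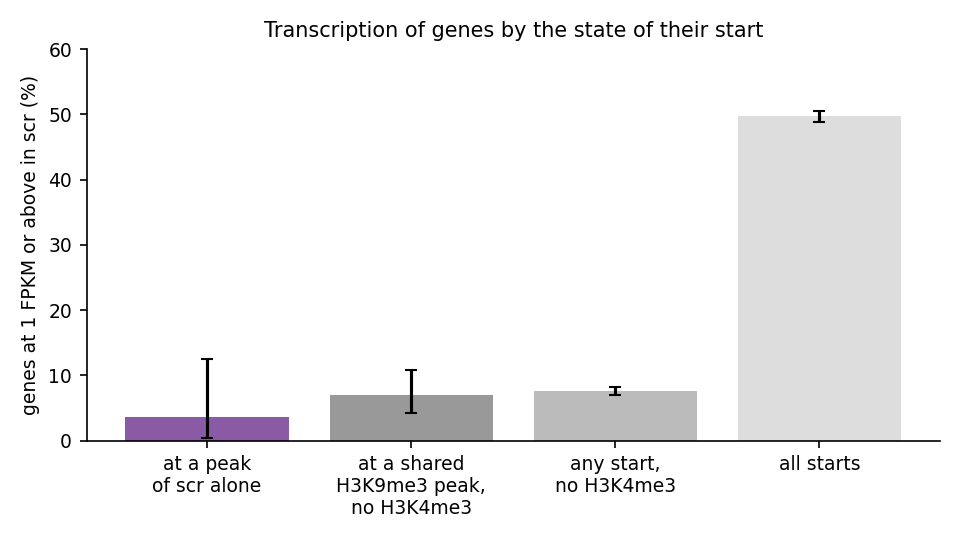
Share of genes with at least 1 FPKM in scr RNA-seq, by what lay at the gene start, with exact 95% binomial intervals that cover counting error: starts at peaks of scr alone (55), at other scr H3K9me3 peaks without H3K4me3 (257), without scr H3K4me3 (7154), and all (14811). The first 3 bars stand at 3.64%, 7.00% and 7.55%, the last at 49.7%.

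Among these 55 starts, the highest score was at Slc7a10, an amino acid transporter gene (chr7:35969821-35971628, score 163, with the nearest miR-93-5p peak 6 bp away). It was followed by Kl, which encodes the ageing-related hormone coreceptor klotho (chr5:151754771-151756424, score 158). Transcription factor genes among them were Foxi3 (score 101), Hoxd1 (chr2:74600536-74601787, score 70.8), Lmx1b (69.9), Mnx1 (69.8), Lmx1a (67.9) and Nr2e1 (58.5). None of these 8 had an RNA-seq locus in scr. A miR-93-5p H3K27me3 peak lay at 3 of the 55 starts (5.45%, 1.14% to 15.1%) and a scr one at 11 (20%, 10.4% to 33.0%), Foxi3 and Mnx1 among the 11. Over the 7154 starts without scr H3K4me3, the shares were 5.72% for miR-93-5p and 13.03% for scr, so H3K27me3 peaks were fewer in the miR-93-5p list there too. At the 257 starts at other scr H3K9me3 peaks without scr H3K4me3, they were 0.778% for miR-93-5p and 4.28% (2.16% to 7.53%) for scr. That scr share was below the interval of the 55 starts, and why was not tested.

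The 2 transcribed genes were Jade1 and Sprr1a. Jade1, a histone acetylation cofactor gene, had 9.75 FPKM in miR-93-5p, 8.99 in mutant and 7.92 in scr, and its peak covered 86 of the 300 bases. Sprr1a, which encodes a precursor of the cornified envelope of squamous epithelium, had 267 FPKM (254 to 281) in miR-93-5p, 606 (598 to 615) in mutant and 96.1 (91.7 to 100.5) in scr. Its log2 ratio over scr was 1.47 for miR-93-5p and 2.65 for mutant, but -0.25 and 3.09 in implied fragments, so the direction in miR-93-5p depends on the measure. Its peak chr3:92289972-92290709 (score 55.2) lay upstream of the listed locus, and its start was the 1 of the 55 with a miR-93-5p H3K4me3 peak.

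Of the 55 genes, 15 matched a RefSeq promoter with the same start, among them those printed above. At least 10 CG dinucleotides stood in 10 of the 15 (66.7%, 38.4% to 88.2%), against 43.5% of all 32851 promoters in the RefSeq table, and the median was 18 against 7. The interval holds the share of all promoters. The motif searched was CG, which reads the same on both strands, and 94.6% of all promoters held at least 1. The CG-rich promoters included Hoxd1 (29), Hrh1 (28), Micu2 (23), Nkapl (21), Kl (19) and Nr2e1 (19). Sprr1a held none and Usp17lb 1.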

How the data were processed

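The deposited files hold, per the file headers and values, 1 peak list per ChIP-seq library, with position and a score for each peak, and FPKM with lower and upper bounds per assembled RNA-seq locus. TopHat2, Cufflinks, Cuffdiff, CASAVA 1.4, Bowtie and MACS are named, with mm9, per the submitters' processing notes. Settings, and the use of input in peak calling, are not given in the sources used here. Depth of the ChIP-seq libraries is unknown, and more peaks can be called in a deeper library. The score was deposited by the authors and was read only within a list. FPKM was deposited by the authors and depends on each library's own transcript models. The 2 input samples and the pulldown FPKM were not analysed here.

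Gene loci were 35640 mm9 loci that the pulldown files list, 31043 with a symbol. RNA-seq locus ends fell on listed gene ends 1070 to 1130 times per library, and on GRCm38 gene ends 24 to 35 times. A gene overlapped a peak when they shared at least 1 bp. An RNA-seq locus and a gene were matched when each overlapped the other best, over at least 0.5 of their joint length. A pseudocount of 1 was added to FPKM before log2 ratios, for genes with a mean FPKM of at least 1 and a locus in all 3 libraries. Implied fragments were computed from the width of the deposited bounds relative to FPKM, taken as counting error, with 10 added and at least 3 required. Reads that fit several isoforms widen the bounds too and make this number too low. Shares have exact (Clopper-Pearson) 95% intervals. Overlaps were tested on simulated data, where 800 of 800 peaks gave the shared length that bedtools gave. Python 3.11.15, pandas 2.3.3, numpy 2.4.6, scipy 1.17.1 and matplotlib 3.10.9 were used.

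Peaks, gene lists and the rule for named genes were chosen with earlier results of these data known. Named were the 10 highest-scoring and the 10 widest peaks, the 15 covered genes with the highest scr FPKM, up to 10 covered genes past 2-fold each way, up to 4 per list, genes with several such peaks or covered over at least 50% (examples), and the Ly6 family. The genes at H3K4me3 peaks and at gene starts were named after their values were seen. Other score, overlap, gene limit, matching and pseudocount settings were tried. A few items are not reported here.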

Additional observations from a re-analysis of the deposited data

How the results depend on the processing

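With a scr score of at least 100 there were 469 peaks of scr alone, with a median width of 1384 bp and a median score of 118. Of these, 38.6% overlapped a gene locus and 153 genes were covered, of which 52.9% had at least 1 FPKM in scr. Among those of the 153 with a ratio, 2 were at least 2-fold higher and 5 lower in miR-93-5p than in scr. How many of the 153 had a ratio is not given here, so these counts are not shares. Over all 8425 genes compared, the shares were 2.97% higher and 3.86% lower. Extending gene loci by 2000 bp gave a gene share of 39.5%. The share of covered genes with at least 1 FPKM was 40.9% when loci had to share 0.9 of their joint length, and 96.8% when genes without a matched locus were left out. A pseudocount of 0.1 gave 32 higher and 24 lower genes of 490, with backgrounds of 3.85% and 4.97%. Implied fragments gave 56 higher and 40 lower genes of 466, with backgrounds of 7.5% and 7.63%. The other 44 values moved by less than the limits set for them. No paired analysis was possible because each group had 1 library. Leaving out a library was not possible for the same reason. Depth of the ChIP-seq libraries is unknown, so a peak missing from the miR-93-5p list may be under that list's threshold.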
